A study of Mus musculus with 36 samples.

Results

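Antigen presentation was followed through 10 listed genes, 6 of the class I route and 4 of the class II route, in whole mouse liver under 3 models of cholestasis. The class I genes were H2-K1, H2-D1, B2m, Tap1, Psmb8 and Psmb9, and the class II genes were H2-Aa, H2-Ab1, H2-Eb1 and Cd74. All 10 were found among the 29546 genes of the deposited table by pairing its Ensembl identifiers with gene symbols, and all 10 passed the filter on low values, a normalized count of at least 10 in at least 4 libraries, which kept 12596 genes for testing. The members were listed by name and role, but with earlier results of these data known.

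The mice were C57BL/6, with 4 libraries in each of 9 groups and 36 libraries in all, and the labels used here state neither age nor sex. In the first model the bile duct was ligated and liver was taken at day 7 (BDL7) or day 28 (BDL28), with sham-operated mice as controls (SHAM). In the second, mice ate a diet holding 0.1% by weight of 3,5-diethoxycarbonyl-1,4-dihydrocollidine, a compound that injures bile ducts, for 7 days (DDC7) or 28 days (DDC28), with mice on control diet as controls (CTLD). In the third, cyclosporin A, an immunosuppressant that inhibits calcineurin, was given by gavage in olive oil at 15 mg/kg for 7 days (CsA7) or 28 days (CsA28), with mice given olive oil alone as controls (VEHICLE). The labels give the controls no day, so each control group served both days of its model, and the 2 comparisons of a model with its controls share those 4 libraries. All libraries were 3′ end libraries of liver RNA with unique molecular identifiers, and they held between 2081093 and 3770267 reads. In bulk liver, fewer cells of a type and less RNA per cell cannot be told apart.

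Class I molecules are carried by nearly all nucleated cells, hepatocytes included, and show peptides from inside the cell to CD8 T cells. The proteasome cuts the peptides, and interferons swap in the immunoproteasome subunits Psmb8 and Psmb9. The transporter subunit Tap1 carries the peptides into the endoplasmic reticulum, where they are loaded onto a heavy chain such as H2-K1 or H2-D1 paired with the light chain B2m. Class II molecules are made mainly by dendritic cells, B cells and macrophages and show peptides from engulfed material to CD4 T cells. H2-Aa and H2-Ab1 encode the alpha and beta chains of I-A, H2-Eb1 encodes the beta chain of I-E, and Cd74, the invariant chain, guards the empty groove on its way to the endosome. C57BL/6 mice do not make the I-E alpha chain, so H2-Eb1 RNA is read here as RNA only.

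The upstream sequences of members that share a chromosome region or moved together are shown for reference beside the values. RefSeq windows of 250 bases before the annotated start, on build GRCm38.p6, were matched by symbol for 8 of the 10 members. H2-K1 has 2 annotated starts, and the window of the first listed is shown. They were searched on both strands for the interferon response element, a pair of GAAA repeats with any 2 bases between them, and a form of it that is 1 base shorter, GAANNGAAA. They were also searched for the gamma activated site, TTCNNNGAA, and the CCAAT box in either direction. On the strand of the gene the latter reads ATTGG (inverted) or CCAAT (direct). Of 32851 such windows in the table, 2.98% held the full interferon response element, 6.31% GAANNGAAA, 7.02% the gamma activated site and 33.8% a CCAAT box in either direction. Each sequence is written 5′ to 3′ on the strand of its gene, with matches in capitals.
H2-K1, chr17:34000348-34000597, minus strand: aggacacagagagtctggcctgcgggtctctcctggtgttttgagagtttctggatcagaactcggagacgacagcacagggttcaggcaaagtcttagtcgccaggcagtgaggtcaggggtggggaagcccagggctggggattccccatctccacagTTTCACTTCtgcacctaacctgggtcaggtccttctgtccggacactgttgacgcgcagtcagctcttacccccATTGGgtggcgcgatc
H2-D1, chr17:35262844-35263093, plus strand: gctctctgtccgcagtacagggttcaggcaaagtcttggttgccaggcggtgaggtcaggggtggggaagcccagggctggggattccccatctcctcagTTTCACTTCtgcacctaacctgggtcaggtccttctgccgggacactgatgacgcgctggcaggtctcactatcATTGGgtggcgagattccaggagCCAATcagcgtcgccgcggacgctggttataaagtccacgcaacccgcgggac
B2m, chr2:122147437-122147686, plus strand: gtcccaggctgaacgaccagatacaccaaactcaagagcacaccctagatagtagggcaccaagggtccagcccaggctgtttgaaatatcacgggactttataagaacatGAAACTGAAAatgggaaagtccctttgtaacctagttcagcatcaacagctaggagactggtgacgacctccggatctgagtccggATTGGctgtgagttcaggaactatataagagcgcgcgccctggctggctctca
Tap1 and Psmb9, bases between their 2 starts, chr17:34187331-34187555, plus strand: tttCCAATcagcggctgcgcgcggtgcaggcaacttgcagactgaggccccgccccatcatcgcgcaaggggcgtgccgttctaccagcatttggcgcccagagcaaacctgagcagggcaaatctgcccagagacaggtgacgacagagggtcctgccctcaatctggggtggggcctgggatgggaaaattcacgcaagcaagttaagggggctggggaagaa
H2-Aa, chr17:34287824-34288073, minus strand: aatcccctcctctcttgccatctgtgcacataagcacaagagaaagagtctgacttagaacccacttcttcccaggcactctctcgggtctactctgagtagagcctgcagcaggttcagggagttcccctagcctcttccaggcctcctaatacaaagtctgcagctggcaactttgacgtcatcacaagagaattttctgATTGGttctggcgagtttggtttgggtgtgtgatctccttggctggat
H2-Eb1, chr17:34305617-34305866, plus strand: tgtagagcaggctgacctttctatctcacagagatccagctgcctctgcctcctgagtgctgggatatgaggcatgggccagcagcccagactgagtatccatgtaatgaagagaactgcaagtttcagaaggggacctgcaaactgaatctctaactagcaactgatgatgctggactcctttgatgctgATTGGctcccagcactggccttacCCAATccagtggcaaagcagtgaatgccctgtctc
The heavy chain genes H2-K1 and H2-D1 are shown because their levels came apart below although their windows are alike. They share an unbroken run of 47 bases and the same match to the shorter interferon response form, TTTCACTTC, which began 90 bases before the H2-K1 start and 150 bases before the H2-D1 start. B2m, the light chain gene, held the full form, GAAACTGAAA, beginning 139 bases before its start, and 1 inverted CCAAT box. Tap1 and Psmb9 are read in opposite directions from starts with 225 bases between them. That shared stretch held a CCAAT box, direct on the Tap1 strand and inverted on the Psmb9 strand, and no match to the other motifs. The class II window of H2-Aa held 1 inverted CCAAT box, beginning 48 bases before the start. The H2-Eb1 window held an inverted box beginning 59 bases before the start and a direct box beginning 35 bases before it. The H2-D1 window held an inverted box and a direct box, beginning 76 and 53 bases before the start. The H2-K1 window shown held 1 inverted box, and the window of its other annotated start an inverted and a direct box. The Psmb8 window held 1 gamma activated match, beginning 97 bases before the start. A match describes letters and was not tested as a binding site.

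Before the results, 1 library has to be named. BDL28 replicate 1 stood apart from the other 3 BDL28 libraries, with summed monocyte and macrophage markers of 2675 normalized counts against 803 to 1391 in the other 3, summed cholangiocyte markers of 2919 against 995 to 1306, and summed dendritic cell markers of 135 against 37.1 to 59.7. Results on members and gene lists that rest on BDL28 are therefore given with and without it. Hepatocyte markers summed to between 51289 and 103561 normalized counts in the 36 libraries, so the defining genes of liver were high in each. Normalized counts are the deposited values, each worth 0.708 to 1.62 per read, and differences are log2 fold changes of the value plus 1 with their standard error from limma, a linear model fitted across all tested genes and all 36 libraries. A call means an adjusted p (Benjamini-Hochberg, over all tested genes) below 0.05. Scaling by total counts in place of the authors' factors moved the median of all tested genes by more than 0.1 in 5 of the 6 comparisons with control, to 0.33 in BDL7, 0.29 in BDL28, 0.38 in DDC7, 0.39 in DDC28 and 0.13 in CsA7. It took the share of higher genes among those called to 84.2% in BDL7, 74.3% in BDL28, 82.2% in DDC7, 78.5% in DDC28 and 83.3% in CsA7, against 52.3%, 51.5%, 52.8%, 53% and 46.7% on the authors' scaling. Nothing in the labels says how the 4 mice of a group were housed or handled, and the p-values measure the spread between these libraries.

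**Figure D1:**
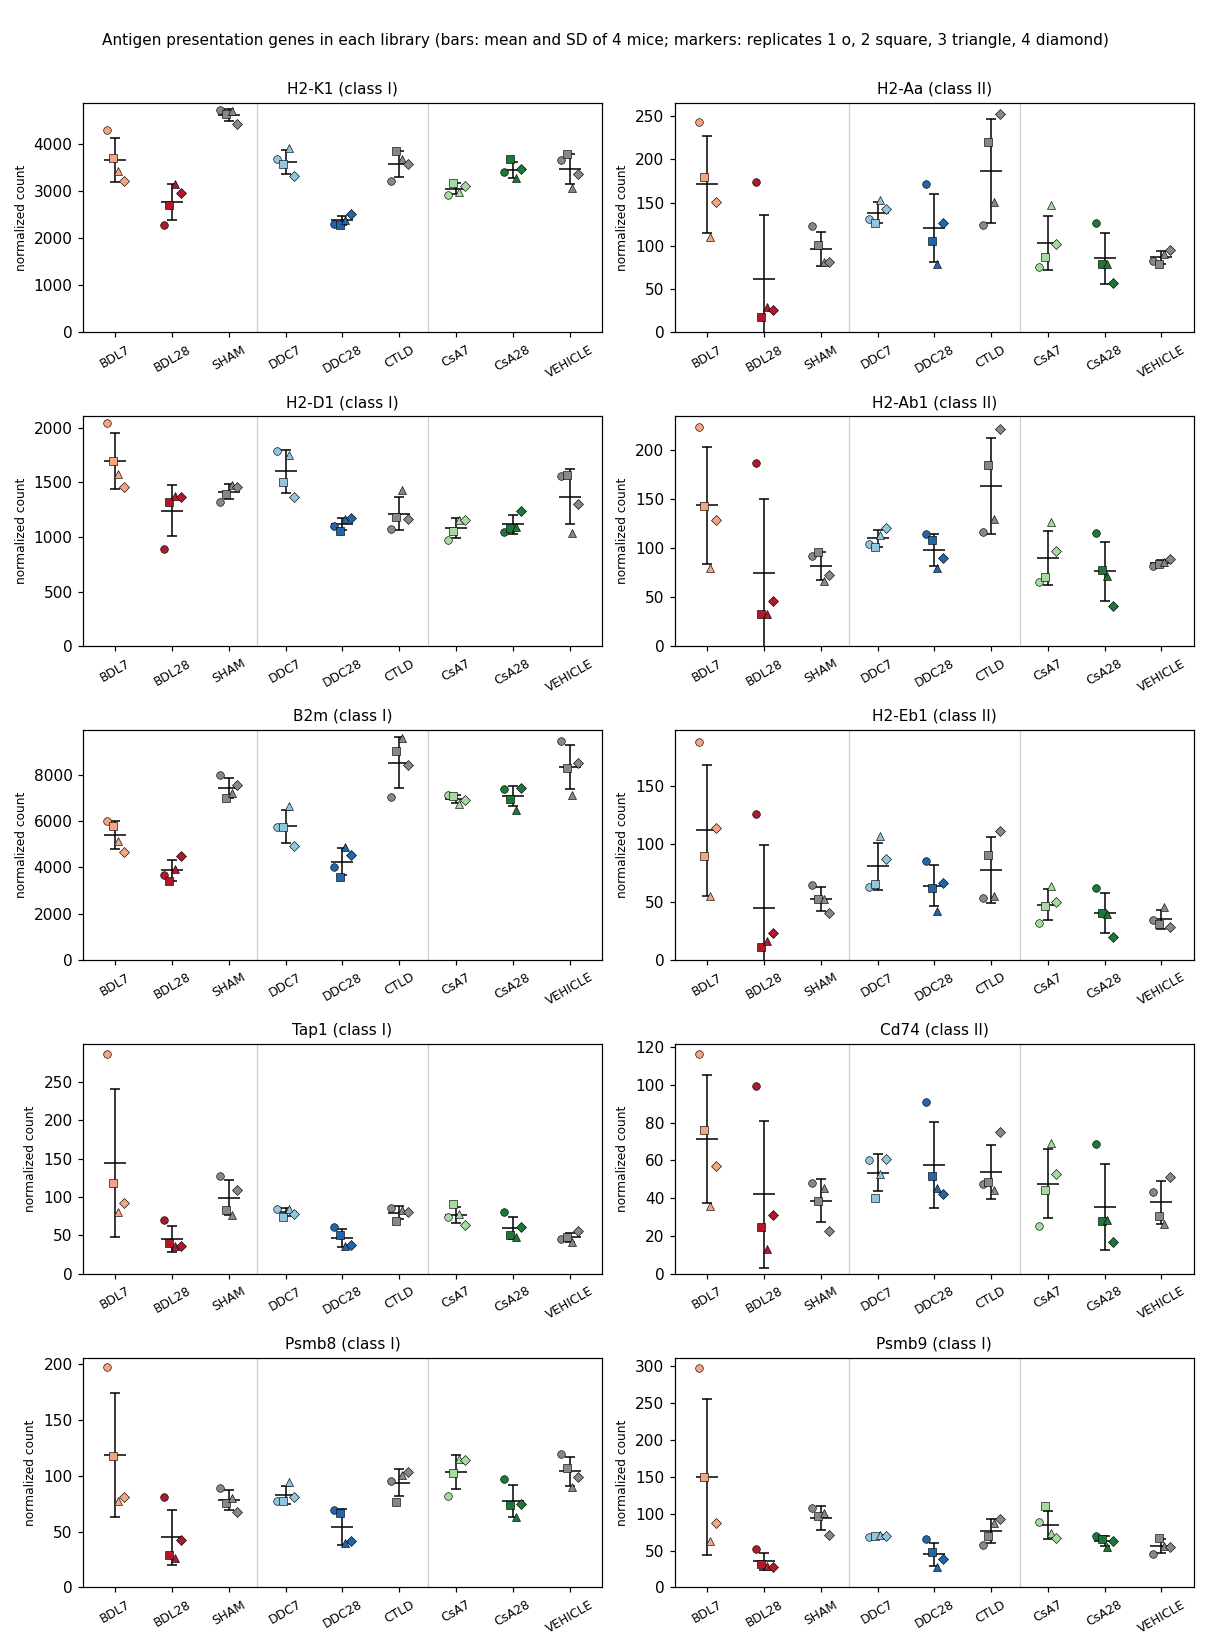
Normalized count (vertical axes, linear, from 0) of each of the 10 genes in the 36 libraries, grouped by model with the 2 treated groups left of their control; points are libraries, horizontal and vertical bars the mean and SD of 4, cut at 0. B2m lies at 3410.4 to 4477 in BDL28 against 6994 to 7974 in SHAM, and the high BDL28 circle in the class II panels is replicate 1.

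After 28 days of ligation the class I genes were lower, with H2-D1 as the exception. Of the 10 members 6 were called lower in BDL28 against SHAM and 0 higher, 5 of them class I and 1 class II, where 22.7% of all tested genes were called lower, 24.1% higher and 46.8% in either direction. The median log2 fold change was -0.91 over the 10 members and -0.94 over the 6 class I genes, beside 0.03 over all tested genes. For 4 members, H2-K1, B2m, Tap1 and Psmb9, the BDL28 and SHAM libraries did not overlap, which was so for 37.3% of all tested genes.

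B2m, the light chain of every class I molecule, had 3653, 3410.4, 3944 and 4477 normalized counts in BDL28 livers, against 7974, 6994, 7196 and 7569 in SHAM livers. The 2 groups did not overlap, and the log2 fold change was -0.95 ± 0.11 (SE, limma adjusted p = 4.0e-09), a 1.93-fold lower level. H2-K1, a classical heavy chain, had 2269.7, 2707, 3142 and 2961 normalized counts in BDL28 livers, against 4720.0, 4622, 4690.0 and 4424 in SHAM livers. Its groups were also apart, with a log2 fold change of -0.75 ± 0.09 (limma adjusted p = 1.5e-08). H2-D1, the other classical heavy chain here, had 891, 1318, 1376 and 1368 normalized counts in BDL28 livers, against 1324, 1396, 1476 and 1454 in SHAM livers. Its groups overlapped and the change of -0.21 ± 0.13 was not called (limma adjusted p = 0.17). H2-K1, H2-D1 and the Q and T region genes are close relatives, so reads of 1 could be counted for another, and values of single heavy chains are uncertain in that respect.

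The 3 peptide supply genes were lower as well. Psmb9 had 52.1, 32.2, 28.8 and 27.9 normalized counts in BDL28 livers, against 107, 96.8, 101 and 71.2 in SHAM livers, a log2 fold change of -1.42 ± 0.29 (limma adjusted p = 0.00017). Every BDL28 library was below every SHAM library. Tap1 had 69.9, 39.5, 36.2 and 35.4 normalized counts in BDL28 livers, against 127, 83.2, 76.8 and 109 in SHAM livers, with a log2 fold change of -1.14 ± 0.26 (limma adjusted p = 0.00042). Its groups did not overlap either. Psmb8 had 80.7, 29.4, 26.0 and 42.9 normalized counts in BDL28 livers, against 89.4, 75.7, 80.0 and 67.6 in SHAM livers, a log2 fold change of -0.93 ± 0.25 (limma adjusted p = 0.0032). Here BDL28 replicate 1 lay inside the SHAM range and the other 3 below it. All 5 class I calls held under total-count and quantile scaling, in edgeR and in DESeq2.

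The class II genes in BDL28 were set apart by 1 library. H2-Aa, the I-A alpha chain, had 173, 17.5, 29.7 and 25.7 normalized counts in BDL28 livers, against 122, 101, 81.0 and 81.8 in SHAM livers. BDL28 replicate 1 was above all SHAM libraries and the other 3 were below all of them, and the log2 fold change of -1.25 ± 0.42 was called (limma adjusted p = 0.015). This call was lost without BDL28 replicate 2 (log2 fold change -0.88, adjusted p = 0.092), without BDL28 replicate 4 (-1.06, adjusted p = 0.057), in edgeR (-0.67, adjusted p = 0.23) and in DESeq2 (-0.64, adjusted p = 0.23). It was also lost with total-count scaling (-0.99, adjusted p = 0.059) and in the fit on these 8 libraries alone (adjusted p = 0.18). H2-Eb1 had 126, 11.03, 16.7 and 23.6 normalized counts in BDL28 livers, against 64.7, 52.1, 52.6 and 40.3 in SHAM livers. H2-Ab1 had 187, 33.1, 32.5 and 46.1 normalized counts in BDL28 livers, against 92.2, 95.6, 66.3 and 72.3 in SHAM livers. Both showed the H2-Aa layout, replicate 1 above the SHAM range and the rest below it, and neither was called, at log2 fold changes of -0.88 ± 0.47 and -0.53 ± 0.37 (limma adjusted p = 0.12 and 0.25). Cd74 had 99.4, 24.8, 13.0 and 31.1 normalized counts in BDL28 livers, against 48.2, 38.5, 45.2 and 22.5 in SHAM livers, and was not called (log2 fold change -0.21 ± 0.45, limma adjusted p = 0.72). Its BDL28 replicate 1 was also the highest of the 8 libraries.

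Without BDL28 replicate 1, 8 of 10 members were called lower in BDL28, 5 class I and 3 class II, beside 22.1% of all tested genes called lower, 22.8% higher and 44.9% in either direction in the same fit. H2-Aa then differed by -1.96 ± 0.28 (limma adjusted p = 1.0e-06), H2-Eb1 by -1.60 ± 0.35 (limma adjusted p = 0.00043) and H2-Ab1 by -1.11 ± 0.28 (limma adjusted p = 0.0016). Cd74 at -0.75 ± 0.40 and H2-D1 at -0.06 ± 0.12 were still not called (limma adjusted p = 0.13 and 0.71). The class I genes were split in BDL28 replicate 1. Tap1, Psmb8 and Psmb9 were the highest of the group there, at 69.9, 80.7 and 52.1 normalized counts. H2-K1 and H2-D1 were the lowest of the group, and B2m lay between the others. In the same library the class II genes and the markers of macrophages, dendritic cells and bile duct cells were all high. Its B cell (16.7), T and NK cell (31.5) and sinusoidal endothelial (799) sums were also the highest of BDL28. Its Kupffer cell sum (1887) was not, and its hepatocyte sum (55778) was the lowest. The part of those cells in the class II values was not tested.

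**Figure D2:**
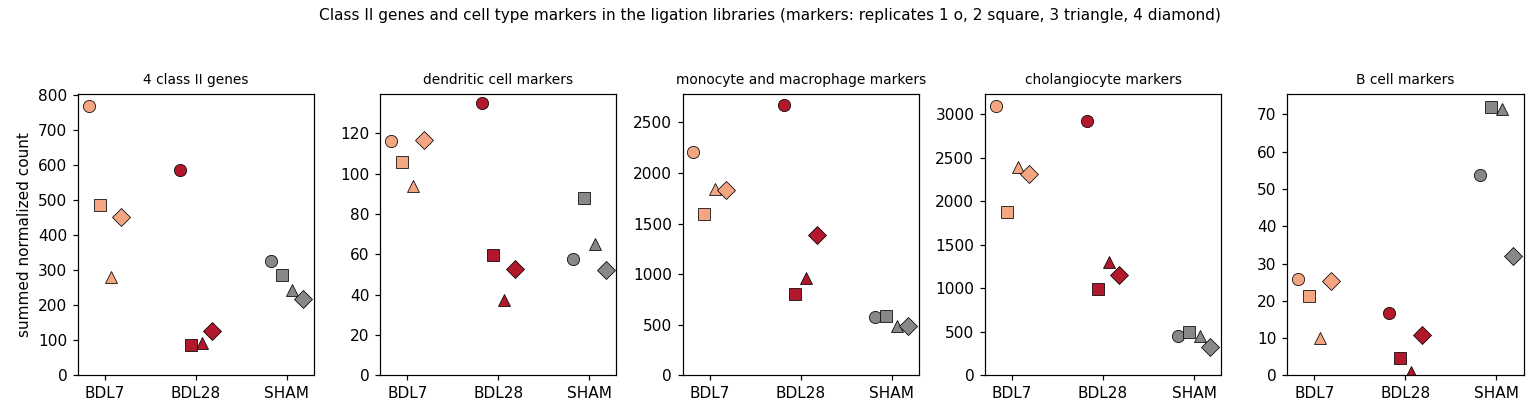
Summed normalized count (vertical axes, linear, from 0) of the 4 class II genes and of 4 marker lists in the 12 ligation and sham libraries, each point 1 library and each marker shape 1 replicate number. BDL28 replicate 1 (circle) stands above the other 3 BDL28 libraries in the class II, dendritic cell, macrophage, cholangiocyte and B cell panels. For dendritic cell markers it is at 135 against 37.1 to 59.7, and for B cell markers at 16.7 against 0.929 to 10.7.

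At day 7 of ligation B2m and H2-K1 were lower by a smaller margin on the authors' scaling, though not with total-count scaling and higher with quantile scaling, and the other 8 members were not called on the authors' scaling. In BDL7 against SHAM 2 of 10 members were called lower and 0 higher, where 18.5% of all tested genes were called lower, 20.2% higher and 38.7% in either direction. The balance turned with the scaling, with 8 members higher and 0 lower under total-count scaling and 3 higher and 0 lower under quantile scaling. Of 12596 tested genes total-count scaling called 4923 higher and 922 lower, and quantile scaling 2363 higher and 2445 lower. The median log2 fold change was 0.46 over the 10 members, 0.31 over the class I genes and 0.79 over the class II genes, beside 0.01 over all tested genes. Both called genes, and no other member, had BDL7 libraries that did not overlap SHAM, as 39.1% of all tested genes had. B2m had 5987, 5772, 5142 and 4659 normalized counts in BDL7 livers, below all SHAM values given above, with a log2 fold change of -0.47 ± 0.11 (limma adjusted p = 0.00057). H2-K1 had 4282, 3698, 3432 and 3212 normalized counts in BDL7 livers, also below all SHAM values, with a log2 fold change of -0.34 ± 0.09 (limma adjusted p = 0.0022). With total-count scaling B2m differed by -0.14 and H2-K1 by -0.02, neither called, and with quantile scaling both were called higher, by 0.29 and 0.35. Total-count scaling moved the median of all tested genes to 0.33, and B2m and H2-K1 lay below that median.

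In the peptide supply genes BDL7 replicate 1 was the highest library. Tap1 had 287, 118, 79.8 and 92.3 normalized counts in BDL7 livers, and Psmb9 had 298, 149.5, 62.8 and 87.0. Psmb8 had 197, 118, 77.8 and 80.9 normalized counts in BDL7 livers and was not called either (log2 fold change 0.50 ± 0.25, limma adjusted p = 0.13). With total-count scaling H2-D1 (0.58), Tap1 (0.69), Psmb8 (0.82) and Psmb9 (0.75) were called higher in BDL7, and with quantile scaling H2-D1 was (0.72). In both Tap1 and Psmb9 genes replicate 1 was above every SHAM library and replicates 3 and 4 were within or below the SHAM range, and neither was called on the authors' scaling (log2 fold changes 0.37 ± 0.26 and 0.42 ± 0.29, limma adjusted p = 0.26 and 0.27). Without BDL7 replicate 1 these differences were -0.02 for Tap1 and 0.01 for Psmb9, and without BDL7 replicate 3 Psmb9 was called higher, by 0.75 (limma adjusted p = 0.031). In the same replicate 1 the 18 interferon gamma signalling and target genes summed to 10363 normalized counts, against 3962 to 5267 in the other 3 BDL7 libraries and 4493 to 4983 in SHAM. H2-D1 had 2046, 1699, 1579 and 1457 normalized counts in BDL7 livers, reaching above the SHAM values, and was not called at 0.25 ± 0.13 (limma adjusted p = 0.11).

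H2-Aa had 243, 179, 111 and 151 normalized counts in BDL7 livers, against 122, 101, 81.0 and 81.8 in SHAM livers, with 3 of the 4 above the SHAM range. H2-Ab1 had 223, 142, 79.8 and 129 normalized counts in BDL7 livers, H2-Eb1 188, 89.5, 54.8 and 114, and Cd74 116, 76.3, 35.9 and 57.2. In all 4 class II genes replicate 1 was the highest and replicate 3 the lowest of BDL7. The log2 fold changes of the 4 class II genes lay between 0.73 for H2-Ab1 and 0.96 for H2-Eb1, with standard errors of 0.37 to 0.47, and 0 of 4 were called by limma, none at an unadjusted p under 0.05 (adjusted p = 0.11 to 0.16). DESeq2 called H2-Eb1 alone (log2 fold change 1.095, adjusted p = 0.042), edgeR called none of the 4, and limma called H2-Eb1 without BDL7 replicate 3 (1.25, adjusted p = 0.048). With total-count scaling all 4 were called, at 1.05 to 1.28. The summed monocyte and macrophage markers were 1591 to 2206 in BDL7 livers against 485 to 583 in SHAM livers, and all 12 of those genes were called higher. The dendritic cell markers summed to 93.7 to 117 in BDL7 livers against 52.2 to 88.1 in SHAM livers. The part of those cells in the class II levels was not tested.

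**Figure D3:**
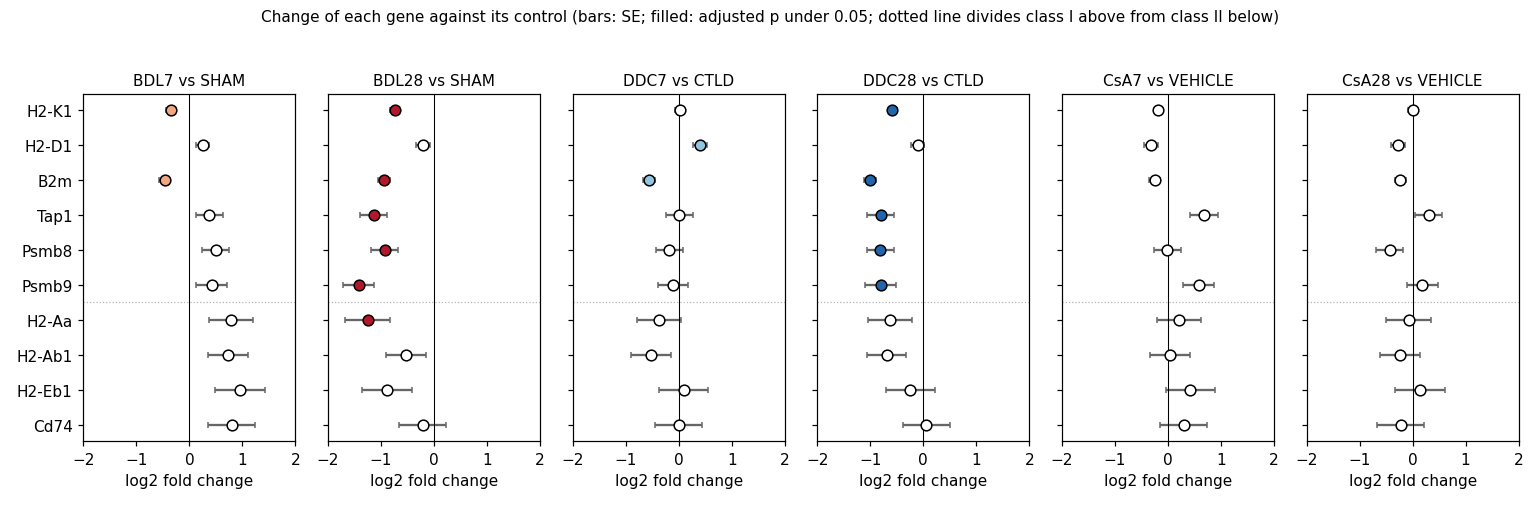
Log2 fold change (horizontal axes) of each gene against the control of its model in the 6 comparisons, with the SE as bars, filled where the limma adjusted p is under 0.05; class I genes stand above the dotted line and class II genes below. The filled points at day 28 are 5 class I genes in both BDL28 and DDC28, from -0.59 for H2-K1 in DDC28 to -1.42 for Psmb9 in BDL28, and 1 class II gene, H2-Aa in BDL28.

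At day 28 of the DDC diet H2-K1, B2m, Tap1, Psmb8 and Psmb9 were lower on the authors' scaling, with H2-K1 and B2m not called with quantile scaling and the other 3 not called with total-count scaling, and 0 class II genes were called. In DDC28 against CTLD 5 of 10 members were called lower and 0 higher, where 24.7% of all tested genes were called lower, 27.9% higher and 52.7% in either direction. The median log2 fold change was -0.80 over the class I genes and -0.44 over the class II genes, beside 0.04 over all tested genes. B2m had 3994, 3584, 4855 and 4546 normalized counts in DDC28 livers, against 7043, 9009.7, 9596 and 8412 in CTLD livers, a 2.01-fold lower level (log2 fold change -1.005 ± 0.11, limma adjusted p = 9.0e-10). H2-K1 had 2309.8, 2282, 2390.2 and 2513 normalized counts in DDC28 livers, against 3201, 3839, 3669 and 3581 in CTLD livers (log2 fold change -0.59 ± 0.09, limma adjusted p = 1.1e-06). The groups were apart for both genes. With Tap1, Psmb8 and H2-Ab1 that made 5 members without overlap, as were 47.1% of all tested genes. H2-D1 had 1098, 1051, 1163 and 1171 normalized counts in DDC28 livers, against 1073, 1180.2, 1426 and 1165 in CTLD livers, overlapped, and was not called (log2 fold change -0.11 ± 0.13, limma adjusted p = 0.50).

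Tap1 had 60.9, 50.6, 36.2 and 36.7 normalized counts in DDC28 livers, against 86.2, 68.0, 83.5 and 80.7 in CTLD livers, with no overlap (log2 fold change -0.80 ± 0.26, limma adjusted p = 0.0087). Psmb8 had 69.5, 66.9, 39.8 and 41.3 normalized counts in DDC28 livers, against 95.3, 76.1, 100.5 and 104 in CTLD livers, again apart (log2 fold change -0.81 ± 0.25, limma adjusted p = 0.0078). Psmb9 had 65.2, 47.7, 28.0 and 38.6 normalized counts in DDC28 livers, against 57.8, 69.6, 87.4 and 92.7 in CTLD livers (log2 fold change -0.80 ± 0.29, limma adjusted p = 0.021). DDC28 replicate 1 was inside the CTLD range for Psmb9. The Psmb9 call was lost without DDC28 replicate 3 (-0.60, adjusted p = 0.10), DDC28 replicate 4 (-0.75, adjusted p = 0.052), CTLD replicate 3 (-0.73, adjusted p = 0.057) or CTLD replicate 4 (-0.71, adjusted p = 0.065). With total-count scaling, where the median of all tested genes was 0.39, B2m and H2-K1 were called lower and Tap1, Psmb8 and Psmb9 were not, at -0.45 to -0.46, and H2-D1 was called higher, by 0.26. With quantile scaling Tap1, Psmb8 and Psmb9 were called lower while B2m at -0.12 and H2-K1 at 0.09 were not.

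The class II genes of DDC28 livers were not called. H2-Aa had 171, 105, 78.7 and 127 normalized counts in DDC28 livers, against 124, 220.2, 150.1 and 252 in CTLD livers (log2 fold change -0.62 ± 0.42, limma adjusted p = 0.22). H2-Ab1 had 115, 108, 79.6 and 90.0 normalized counts in DDC28 livers, against 117, 185, 129 and 221 in CTLD livers (log2 fold change -0.69 ± 0.37, limma adjusted p = 0.12). All 4 DDC28 values of H2-Ab1 were below all 4 CTLD values, by a small gap. Cd74 at 0.06 ± 0.45 and H2-Eb1 at -0.25 ± 0.47 had overlapping groups (limma adjusted p = 0.93 and 0.68), and 0 of the 4 class II genes passed an unadjusted p of 0.05 in limma or the adjusted threshold in edgeR or DESeq2. Fitted on the DDC28 and CTLD libraries alone, H2-Ab1 was called lower (adjusted p = 0.0088). Over the same contrast the monocyte and macrophage markers summed to 2038 to 2935 in DDC28 livers against 485 to 595 in CTLD livers, with 10 of 12 called higher, among them Gpnmb, Trem2, Itgam and Lyz2.

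At day 7 of the DDC diet H2-D1 was higher under every scaling, while B2m was lower as deposited and under total-count scaling but higher with quantile scaling. In DDC7 against CTLD 1 member was called higher, where 24.7% of all tested genes were, and 1 lower, where 22.1% were, with 46.8% called in either direction. B2m alone had libraries without overlap, as did 44% of all tested genes. H2-D1 had 1782, 1507, 1748 and 1363 normalized counts in DDC7 livers, against 1073, 1180.2, 1426 and 1165 in CTLD livers, and was higher by 0.40 ± 0.13 (limma adjusted p = 0.0087). CTLD replicate 3 was above the lowest DDC7 library. B2m had 5755, 5733, 6632 and 4924 normalized counts in DDC7 livers, all below the CTLD values above, and was lower by a log2 fold change of -0.56 ± 0.11 (limma adjusted p = 4.8e-05) (0.39 with quantile scaling). H2-K1 had 3683, 3563, 3906 and 3312 normalized counts in DDC7 livers, within or just above the CTLD range (0.02 ± 0.09, limma adjusted p = 0.89), and was called higher with total-count scaling (0.37) and with quantile scaling (0.71). Tap1, Psmb8 and Psmb9 ranged from -0.18 to 0.01 and the 4 class II genes from -0.52 to 0.09, with 0 of these 7 called by limma, edgeR or DESeq2 and none at an unadjusted p under 0.05. The median over the 10 members was -0.05, beside 0.04 over all tested genes.

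Cyclosporin A gave no call. In CsA7 against VEHICLE 0 of 10 members were called by limma, edgeR or DESeq2, where limma called 4.03% of all tested genes (1.88% higher and 2.14% lower), and 4 members had an unadjusted p under 0.05. Those 4 were H2-K1 at -0.18, H2-D1 at -0.32, B2m at -0.25 and Tap1 at 0.68 (limma adjusted p = 0.28, 0.15, 0.19 and 0.14). Tap1 had 73.9, 90.3, 78.2 and 64.0 normalized counts in CsA7 livers, against 45.5, 47.2, 41.6 and 55.0 in VEHICLE livers, so that the groups did not overlap. B2m was the other member without overlap, where 10.3% of all tested genes had none, with 7097, 7096, 6730.0 and 6921 normalized counts in CsA7 livers, against 9436, 8292, 7109 and 8509 in VEHICLE livers. Tap1 was called in the fit on these 8 libraries alone (adjusted p = 0.039), and H2-D1 was called lower without VEHICLE replicate 3 (-0.45, adjusted p = 0.042). In CsA28 against VEHICLE 0 of 10 members were called by the same 3 tools, where limma called 0.0238% of all tested genes (0.00794% higher and 0.0159% lower), and H2-D1 and B2m had an unadjusted p under 0.05. No member was free of overlap, where 4.49% of all tested genes were. The 10 log2 fold changes lay between -0.44 for Psmb8 and 0.30 for Tap1. The medians over the members were 0.12 in CsA7 and -0.15 in CsA28, beside 0.0016 and -0.0011 over all tested genes. In CsA28 against CsA7 0 of 10 were called by the 3 tools, where limma called 2.45% of all tested genes (1.37% higher and 1.07% lower). H2-K1 alone had an unadjusted p under 0.05, at 0.18, and alone had libraries without overlap, as 10% of all tested genes had. It had 3393, 3678, 3269 and 3462 normalized counts in CsA28 livers, against 2918, 3174, 2975 and 3104 in CsA7 livers.

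Between the days of the ligation model nearly every member was lower at the later day. In BDL28 against BDL7 9 of 10 members were called lower and 0 higher, where 16.7% of all tested genes were called lower, 14% higher and 30.7% in either direction, and the median was -1.34 over the members, beside -0.02 over all tested genes. The libraries did not overlap for H2-K1, H2-D1, B2m, Tap1 and Psmb9, 5 members, where 23% of all tested genes did not. The difference was -2.04 ± 0.42 for H2-Aa, -1.85 ± 0.29 for Psmb9, -1.84 ± 0.47 for H2-Eb1 and -1.51 ± 0.26 for Tap1 (limma adjusted p = 0.00053, 1.9e-05, 0.0036 and 3.7e-05). Psmb8 differed by -1.42 ± 0.25 and H2-Ab1 by -1.27 ± 0.37 (limma adjusted p = 8.1e-05 and 0.011), and H2-K1, H2-D1 and B2m by -0.40 to -0.48. Cd74 was lower by -1.02 ± 0.45 and was not called (limma adjusted p = 0.083). The groups of H2-Aa overlapped only through BDL28 replicate 1, at 173 normalized counts, and the other 3 BDL28 libraries at 17.5 to 29.7 were far below the BDL7 range of 111 to 243. Without BDL28 replicate 1 all 10 members were called lower, where 20% of all tested genes were lower, 17% higher and 37% called in either direction, with H2-Aa at -2.74 and Cd74 at -1.55. Cd74 was also called without BDL7 replicate 3 (-1.30, adjusted p = 0.037). The H2-Ab1 call was lost at -1.02 without BDL7 replicate 1, BDL28 replicate 2 or BDL28 replicate 3 (adjusted p = 0.057, 0.065 and 0.059) and in edgeR (-0.96, adjusted p = 0.052). In the fit on these 8 libraries alone only B2m, Tap1, Psmb8 and Psmb9 were called, where 2443 of 12596 tested genes were. Cell markers moved over the same contrast, with 6 of 12 monocyte and macrophage markers lower (median -0.83), 2 of 4 dendritic cell markers (-1.30), 4 of 8 Kupffer cell markers (-0.91) and 5 of 8 sinusoidal endothelial markers (-0.60), and 0 of these higher. The numbers lower were 9, 3, 4 and 7 without BDL28 replicate 1, with 1 Kupffer cell marker higher. The 1 tested B cell marker was also lower (-2.07), and the 1 tested T and NK cell marker was not called (-0.71). The hepatocyte and cholangiocyte lists had medians above 0. Of 8 hepatocyte markers 3 were higher and 0 lower (median 0.10), and of 8 cholangiocyte markers 1 was higher and 1 lower (0.51). Without BDL28 replicate 1 hepatocyte markers had 3 higher and 0 lower, and cholangiocyte markers 0 higher and 1 lower. The part of those cells in the members' levels was not tested.

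In the DDC model H2-K1, H2-D1 and B2m were lower at the later day. In DDC28 against DDC7 3 of 10 members were called lower and 0 higher, where 3.63% of all tested genes were called lower, 2.07% higher and 5.7% in either direction. The median was -0.47 over the members, beside 0.01 over all tested genes. The difference was -0.61 ± 0.09 for H2-K1, -0.51 ± 0.13 for H2-D1 and -0.44 ± 0.11 for B2m (limma adjusted p = 1.8e-05, 0.011 and 0.0083), and these signs held under every scaling. The libraries of all 6 class I genes did not overlap, where 15% of all tested genes did not, and Psmb8 and Psmb9 were not called at -0.64 and -0.70 (limma adjusted p = 0.15 and 0.17). In the fit on these 8 libraries alone all 6 were called lower, where 1114 of 12596 tested genes were called in either direction. Tap1 was lower by -0.82 ± 0.26 and missed the threshold (limma adjusted p = 0.053). It passed with quantile scaling (-0.83, adjusted p = 0.041), and without DDC28 replicate 1 (-0.96, adjusted p = 0.029), and the H2-D1 call was lost without DDC7 replicate 1 (-0.45, adjusted p = 0.051). The class II genes differed by -0.34 to 0.06 and 0 of 4 were called by limma, edgeR or DESeq2, none at an unadjusted p under 0.05.

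The difference between the models was then tested itself, as the change against control in one model minus that in another. Between the ligation and DDC effects at day 7, 0 of 10 members were called by limma, where 8.46% of all tested genes were (3.78% higher and 4.68% lower), and 2 had an unadjusted p under 0.05, H2-K1 at -0.36 ± 0.13 and H2-Ab1 at 1.25 ± 0.53 (limma adjusted p = 0.067 and 0.14). H2-K1 was called in DESeq2 (-0.35, adjusted p = 0.041) and without BDL7 replicate 1 (-0.44, adjusted p = 0.027), while edgeR called none. At day 28, 0 of 10 were called by limma, edgeR or DESeq2, where limma called 10.3% of all tested genes (4.69% higher and 5.59% lower), and 0 had an unadjusted p under 0.05. Without BDL28 replicate 1, H2-Aa was lower in the ligation effect by -1.33 ± 0.38 (limma adjusted p = 0.015). Against the cyclosporin A effect, the ligation effect at day 28 was lower for 4 of 10 members, where 15% of all tested genes were lower, 14.8% higher and 29.9% called in either direction, namely H2-K1 (-0.75), B2m (-0.71), Tap1 (-1.45) and Psmb9 (-1.60), all class I. Without BDL28 replicate 1 it was lower for 7, with Psmb8, H2-Aa and H2-Eb1 added. The shares just given are from the fit on all 36 libraries, so this rise has no share of its own fit beside it. At day 7 H2-D1 alone differed, higher in the ligation effect by 0.57 ± 0.18 (limma adjusted p = 0.016), where 11.7% of all tested genes were higher, 11.9% lower and 23.5% called in either direction, and this call was lost without BDL7 replicate 1 (0.48, adjusted p = 0.053).

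By limma the 3 control groups were not alike in 2 members. Among them 19.4% of all tested genes were called, and H2-K1 (limma F test, adjusted p = 0.0011) and Tap1 (adjusted p = 0.0096) were. H2-K1 averaged 4614 ± 133 normalized counts in SHAM, 3572 ± 269.7 in CTLD and 3460.3 ± 318 in VEHICLE (SD, n = 4 each). Tap1 averaged 98.9 ± 23.1 in SHAM, 79.6 ± 8.05 in CTLD and 47.3 ± 5.63 in VEHICLE. The lowest SHAM library was above the highest VEHICLE library in both genes, so an effect against VEHICLE and one against SHAM start from different levels. H2-Aa averaged 186 ± 59.7 in CTLD, with 124 to 252 normalized counts, against 96.5 ± 19.5 in SHAM and 86.8 ± 7.55 in VEHICLE, and was not called among the controls (adjusted p = 0.13). H2-Ab1 averaged 163 in CTLD, 81.6 in SHAM and 84.9 in VEHICLE and was not called either. Both had an unadjusted p under 0.05 in the limma F test. DESeq2 and the fit on the controls alone called more members than limma, with the numbers given in the last section.

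Ordered by level across the 9 groups, B2m was highest in CTLD at 8515 ± 1094 normalized counts and lowest in BDL28 at 3871 ± 459, with DDC28 next above at 4245 ± 566. Each neighbouring pair in that order overlapped except CsA7 and DDC7, whose libraries were 6730.0 to 7097 and 4924 to 6632. H2-K1 was highest in SHAM, apart from its next group BDL7, and lowest in DDC28 at 2374 ± 103, which overlapped BDL28. H2-D1 was highest in BDL7 at 1695 ± 254 and lowest in CsA7 at 1084 ± 90.3, and all neighbours in its order overlapped. Tap1, Psmb8 and Psmb9 were all highest in BDL7, at 144 ± 96.3, 118 ± 55.6 and 149 ± 106, and lowest in BDL28, at 45.2 ± 16.5, 44.7 ± 25.0 and 35.2 ± 11.4, with DDC28 next above. H2-Aa and H2-Ab1 were highest in CTLD and H2-Eb1 and Cd74 in BDL7, and in all 4 class II genes, as in these 3, every neighbouring pair in the order overlapped. H2-Aa and H2-Ab1 were lowest in BDL28 at 61.5 ± 74.6 and 74.6 ± 75.1, H2-Eb1 in VEHICLE at 34.8 ± 7.89 and Cd74 in CsA28 at 35.4 ± 22.8 (SD, n = 4 each). Without BDL28 replicate 1 all 4 class II genes had their lowest mean in BDL28, at 24.3 ± 6.25 for H2-Aa, 37.2 ± 7.68 for H2-Ab1, 17.1 ± 6.29 for H2-Eb1 and 22.96 ± 9.18 for Cd74 (SD, n = 3).

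**Figure D4:**
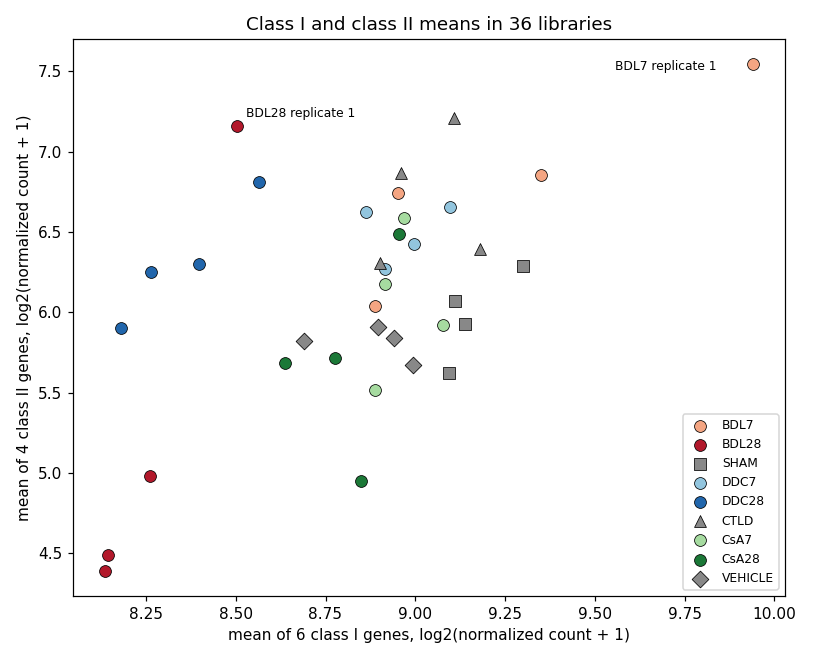
Mean of log2(normalized count + 1) over the 6 class I genes (horizontal axis) and the 4 class II genes (vertical axis) in each of 36 libraries; controls are grey. The other 3 BDL28 libraries lie at the lower left, below BDL28 replicate 1, and the 4 DDC28 libraries lie left of the CTLD libraries at overlapping heights.

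The class means show the same layout. The class I mean was 8.26 ± 0.17 in BDL28 against 9.16 ± 0.09 in SHAM, and 8.35 ± 0.17 in DDC28 against 9.04 ± 0.13 in CTLD, on the log2 scale. The class II mean was 5.26 ± 1.29 in BDL28, spanning 4.39 to 7.16, against 5.98 ± 0.28 in SHAM, and 6.32 ± 0.37 in DDC28 against 6.69 ± 0.42 in CTLD. The BDL28 means without replicate 1 were 8.18 ± 0.07 for class I and 4.62 ± 0.31 for class II (SD, n = 3). In BDL7 the class II mean was above SHAM by 0.82 and the class I mean by 0.12. These means describe the lists and carry no test. Across the 36 libraries the 6 pairs of class II genes had a median Pearson r of 0.88, and 0.90 once group means were removed. The 15 pairs of class I genes had a median of 0.55, and 0.14 once group means were removed. With means removed H2-K1 with H2-D1 stood at 0.82, H2-K1 with B2m at 0.68 and H2-D1 with B2m at 0.61. Tap1 stood at 0.80 with both Psmb8 and Psmb9, and Psmb8 with Psmb9 at 0.73. The other class I pairs lay at -0.04 to 0.23. The 24 pairs across classes had a median of 0.38, and 0.29 once group means were removed. They then ran from -0.40 for H2-D1 with H2-Eb1 to 0.81 for Psmb8 with Cd74. Psmb8 stood at 0.72 or more with every class II gene. The points share libraries and scaling, so these values are a description.

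Among genes that are not members, those whose level followed the class I mean closely over the 36 libraries included Iigp1 (r = 0.92), Bst2 (0.89), Ifi47 (0.88) and Isg15 (0.88). The genes closest to the class II mean were H2-DMa (0.85), Trim30a (0.79), Tnfrsf11b (0.78), Zeb2 (0.77) and Cxcl9 (0.76). H2-DMa, a chain of the molecule that loads class II with peptide, averaged 46.0 normalized counts in BDL7, 15.8 in BDL28 (SD 14.6) and 17.8 in SHAM. Without BDL28 replicate 1 it was called lower in BDL28, by -0.99 ± 0.32 against SHAM and -2.26 ± 0.32 against BDL7 (limma adjusted p = 0.011 and 8.4e-07).

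The rest of the class I route, 22 genes of which 21 passed the filter, was taken from a list of heavy chains, loading factors and proteasome parts. In BDL28 against SHAM 8 were called lower and 2 higher, with a median of -0.21. Those were 10 of 21 called, near the 46.8% of all tested genes (22.7% lower and 24.1% higher). In DDC28 against CTLD 7 were lower and 4 higher, with a median of -0.16. Those were 11 of 21 called, near the 52.7% of all tested genes (24.7% lower and 27.9% higher). Total-count scaling gave 6 lower and 7 higher in BDL28 and 5 lower and 9 higher in DDC28. Of 12596 tested genes it called 1672 lower and 4829 higher in BDL28, and 1602 lower and 5838 higher in DDC28. The balance of the list turned with the scaling, and the genes named next kept sign and call under both other scalings. The BDL28 counts were again 8 lower and 2 higher without BDL28 replicate 1, and H2-Q10 differed by -1.09, Pdia3 by -0.92, Canx by -0.74, H2-Q7 by -1.53 and H2-Q1 by 3.13, all called. H2-Q10, a secreted class I chain made by the liver, averaged 1333 normalized counts in BDL28 against 2791 in SHAM (log2 fold change -1.09 ± 0.10, limma adjusted p = 1.3e-10) and 1478 in DDC28 against 2782 in CTLD (-0.91 ± 0.10, adjusted p = 5.3e-09). The chaperones of the loading complex were lower too. Pdia3 differed by -0.91 ± 0.12 in BDL28 and -0.98 ± 0.12 in DDC28 (limma adjusted p = 7.1e-08 and 1.3e-08). Canx differed by -0.68 ± 0.07 in BDL28 and Calr by -0.97 ± 0.12 in DDC28 (limma adjusted p = 9.6e-10 and 2.7e-08). H2-Q7 averaged 184 in BDL28 against 562 in SHAM, a log2 fold change of -1.61 ± 0.18 (limma adjusted p = 6.4e-09).

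H2-Q1, a class Ib gene of the Q region, moved the other way. It averaged 184 normalized counts in DDC28 against 12.2 in CTLD (log2 fold change 3.85 ± 0.45, limma adjusted p = 3.2e-08) and 148 in BDL7 against 15.5 in SHAM (3.34 ± 0.45, adjusted p = 8.5e-07). It averaged 120 in DDC7 against 12.2 in CTLD (3.17 ± 0.45, adjusted p = 1.4e-06), and in BDL28, where it was chosen after its values were seen, 141 against 15.5 in SHAM (3.24 ± 0.45, adjusted p = 8.4e-07). As a close relative of the other heavy chains it carries the same uncertainty of read assignment. At day 7 the list leaned higher, with 9 called higher and 2 lower in BDL7, a median of 0.19. Of all tested genes 20.2% were higher and 18.5% lower there. In DDC7 7 of the list were higher and 4 lower, beside 24.7% and 22.1% of all tested genes. Tapbp, the tapasin of the loading complex, rose in BDL7 by 0.54 ± 0.12 (limma adjusted p = 0.00037) and Psme1, a proteasome activator subunit, by 0.56 ± 0.11 (adjusted p = 7.1e-05). Of 10 constitutive proteasome subunits 6 were lower and 0 higher in BDL28, beside 22.7% and 24.1% of all tested genes. In DDC28 4 were lower and 2 higher, beside 24.7% and 27.9% of all tested genes. With total-count scaling 0 were lower in either group, and 2 in BDL28 and 5 in DDC28 were higher. Of 12596 tested genes 1672 were lower and 4829 higher in BDL28 on that scaling, and 1602 lower and 5838 higher in DDC28. In BDL28 without replicate 1, 5 were lower.

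**Figure D5:**
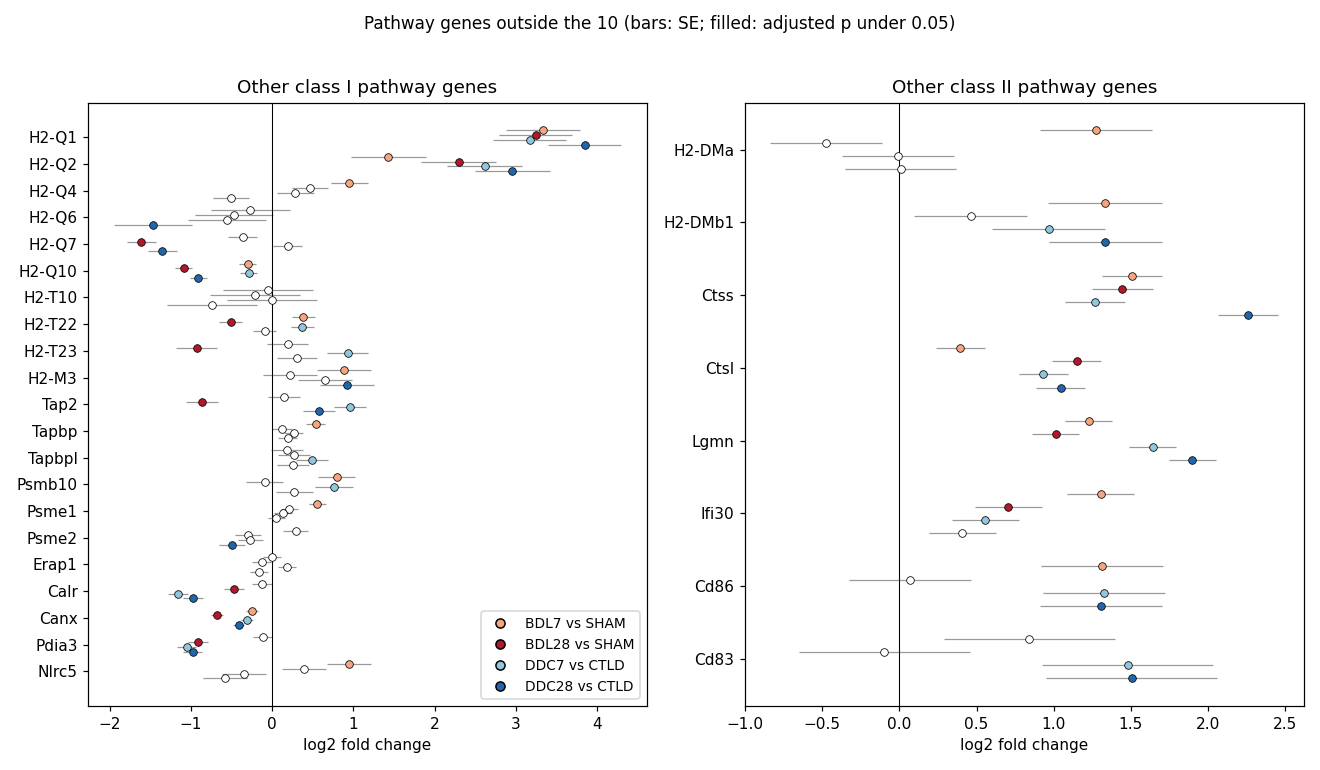
Log2 fold change (horizontal axes) of the other tested class I genes (left) and class II genes (right) in BDL7, BDL28, DDC7 and DDC28 against their controls, with the SE as bars, filled where the limma adjusted p is under 0.05. On the left H2-Q1 stands at 3.17 to 3.85 in all 4 while H2-Q10, Calr, Canx and Pdia3 lie below 0, most of them filled, and on the right Ctss, Ctsl and Lgmn are filled and above 0 in all 4.

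The rest of the class II route was mostly higher. Of 15 matched genes 8 passed the filter. In BDL7 7 of 8 were called higher, in BDL28 4, in DDC7 7 and in DDC28 6, and 0 were called lower in any of these. In the same order 20.2%, 24.1%, 24.7% and 27.9% of all tested genes were called higher, and 18.5%, 22.7%, 22.1% and 24.7% lower. The medians of the list were 1.29, 0.58, 1.12 and 1.32. Without BDL28 replicate 1, 3 were higher and 1, H2-DMa, lower in BDL28, with a median of 0.28, and Ctss differed by 1.26. Lgmn, a lysosomal protease that cuts antigens, averaged 529 normalized counts in DDC28 against 144 in CTLD (log2 fold change 1.90 ± 0.15, limma adjusted p = 1.8e-12). Ctss, the protease that trims the invariant chain in antigen presenting cells, averaged 1372 in DDC28 against 285.5 in CTLD (2.26 ± 0.20, adjusted p = 4.6e-11) and 885 in BDL28 against 317 in SHAM (1.45 ± 0.20, adjusted p = 4.0e-07). H2-DMb1, the other chain of the class II loading molecule, averaged 41.3 in DDC28 against 16.0 in CTLD (1.33 ± 0.37, adjusted p = 0.0027). Ctss, Ctsl and Lgmn are proteases that macrophages also use outside antigen presentation. Ciita, the master regulator of class II transcription, did not pass the filter and was picked after its values were seen. It reached 29.2 normalized counts in BDL7 and 13.8 in BDL28 at most.

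Interferon genes were mostly lower at the later day of ligation. Of 18 interferon gamma signalling and target genes 16 were tested. In BDL28 against BDL7 13 were lower and 0 higher, with a median of -1.27, beside 16.7% and 14% of all tested genes. The 13 and 0 were the same with both other scalings and without BDL28 replicate 1. Cxcl9, a chemokine that draws T cells, differed by -4.52 ± 0.76 (limma adjusted p = 5.6e-05), and by -5.42 without BDL28 replicate 1. In BDL28 against SHAM 8 were lower and 1 higher, beside 22.7% and 24.1% of all tested genes. Irf9 was lower by -1.33 ± 0.17 and Iigp1 by -1.75 ± 0.25 (limma adjusted p = 5.7e-08 and 1.8e-06), and the higher one was the receptor chain Ifngr1. With total-count scaling 7 were lower and 4 higher in BDL28, beside 1672 and 4829 of 12596 tested genes. Without BDL28 replicate 1, 9 were lower, Irf9 by -1.46 and Iigp1 by -1.93, and 1 higher, beside 22.1% and 22.8% of all tested genes. In DDC28 against CTLD 6 were lower, Stat2 by -1.85 ± 0.16 (limma adjusted p = 4.2e-12), and 4 higher (5 lower and 6 higher with total-count scaling). Of all tested genes 24.7% were lower and 27.9% higher there, and with total-count scaling 1602 and 5838 of 12596. In BDL7 4 of the list were higher and 0 lower, Irf8 by 1.66 ± 0.26 (limma adjusted p = 3.3e-06), beside 20.2% and 18.5% of all tested genes. With total-count scaling 12 of the list were higher and 0 lower, beside 4923 and 922 of 12596 tested genes. Ifng itself had no read in 30 of 36 libraries, and the highest value was 1.34 normalized counts, so its level was at the limit of detection at this depth.

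Dendritic cell and lymphocyte markers were sparse in these libraries, while all 12 monocyte and macrophage markers and all 8 Kupffer cell markers passed the filter. Of 12 dendritic cell markers 4 passed the filter, of 10 B cell markers 1 and of 14 T and NK cell markers 1. Flt3 had no read in 19 of 36 libraries and Xcr1 in 11, and Xcr1 and Ms4a1 had no read in any BDL28 library. The B cell sum was 0.929 to 16.7 normalized counts in BDL28 livers against 32.0 to 72.0 in SHAM livers, and Ighm, its 1 tested gene, was lower by -3.71 ± 0.67 (limma adjusted p = 3.2e-05), and by -4.12 without BDL28 replicate 1. The B cell sum without that library was 0.929 to 10.7 in BDL28. Itgax, the integrin CD11c of dendritic cells and some macrophages, averaged 44.5 in DDC28 against 2.43 in CTLD (4.06 ± 0.75, limma adjusted p = 2.9e-05). Sinusoidal endothelial markers, another class I and class II bearing cell of the liver, summed to 476 to 799 in BDL28 livers against 1047 to 1168 in SHAM livers, and to 724 to 812 in DDC28 livers against 1083 to 1212 in CTLD livers. Without BDL28 replicate 1 the BDL28 sums were 476 to 675. Hepatocyte markers summed to 55778 to 68874 in BDL28 livers against 70926 to 79992 in SHAM livers, and to 54113 to 62432 in DDC28 livers against 82289 to 103561 in CTLD livers. The BDL28 sums were 61219 to 68874 without BDL28 replicate 1. The part of each cell type in the class I levels was not tested.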

How the data were processed

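Liver RNA of 36 mice was sequenced as 3′ end libraries with unique molecular identifiers. The submitters' processing notes list build GRCm39 and, with no roles, RSEM 1.3.1, DESeq2, STAR 2.7.9a, UMI-tools 1.1.1 and Trim Galore. No strand setting is stated in the labels used here. The authors deposited 1 table of normalized counts per gene, a signal scaled by size factors. Of its values 100% were whole multiples of 1 read per library within 0.001 read, so whole reads were recovered, between 2081093 and 3770267 per library. Symbols came from GENCODE names (29121 of 29546 identifiers). Differences were fitted with limma 3.58.1 (R 4.3.3, trend and robust) on log2(value + 1) over 9 group terms, Benjamini-Hochberg adjusted over 12596 genes with at least 10 in at least 4 libraries. edgeR 4.0.16 and DESeq2 1.42.0 on recovered reads, 2 other scalings, 2 pseudocounts, 2 filters, fits on the compared groups alone, a replicate block and each library left out were alternatives. The limma script was tested on simulated data. The members, lists and tests were chosen with earlier results of these data known. The text names the 10 members, up to 4 genes per list and comparison with the lowest adjusted p, and the 5 genes most alike to each class mean, less items that are not reported here. Replicate numbers came from the descriptions.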

Additional observations from a re-analysis of the deposited data

Results flagged for a closer look

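In 6 of the 90 sets of 4 libraries, 10 genes in 9 groups, 1 library was far from the other 3. The rule picks about 1 in 20 sets of independent normal values. The genes here share libraries and vary together, so that rate does not measure chance for these 90 sets. BDL28 replicate 1 was the distant library in 5 of the 6. It had 891 normalized counts of H2-D1 where the nearest other had 1318, 69.9 of Tap1 where the nearest had 39.5, and 173 of H2-Aa where the nearest had 29.7. It had 187 of H2-Ab1 where the nearest had 46.1, and 126 of H2-Eb1 where the nearest had 23.6. The same library had the highest macrophage, dendritic cell, cholangiocyte, B cell, T and NK cell and sinusoidal endothelial sums of its group. The part of those cells was not tested. The sixth was Cd74 in CTLD replicate 4, with 75.3 normalized counts where the nearest other CTLD library had 48.6.

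The effect of ligation against SHAM differed between day 28 and day 7, tested as BDL28 against BDL7, for 9 members. The log2 differences were -0.40 for H2-K1, -0.46 for H2-D1, -0.48 for B2m, -1.51 for Tap1, -1.42 for Psmb8, -1.85 for Psmb9, -2.04 for H2-Aa, -1.27 for H2-Ab1 and -1.84 for H2-Eb1. The effect of the DDC diet against CTLD differed between the days for 3 members, by -0.61 for H2-K1, -0.51 for H2-D1 and -0.44 for B2m.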

How the results depend on the processing

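With total-count scaling the members called were 8 in BDL7 against SHAM, all higher, 3 in DDC28 against CTLD and 1 between the ligation and DDC effects at day 7. In the same order it called 5845, 7440 and 994 of 12596 tested genes. With quantile scaling 3 were called in DDC28 against CTLD, where 6675 of 12596 tested genes were. Signs turned for H2-K1 (0.35) and B2m (0.29) in BDL7, B2m (0.39) in DDC7 and H2-K1 (0.092) in DDC28 with quantile scaling, and for H2-D1 (0.26) in DDC28 with total-count scaling; the cause was not tested. Signs of values called in neither setting turned 102 times. Fits on the compared groups alone, with fewer libraries, called 4 in BDL7 against SHAM, 1 in CsA7 against VEHICLE, 4 in BDL28 against BDL7, 6 in DDC28 against DDC7, 3 between the day 7 ligation and DDC effects and 6 among controls. In the same order those fits called 5235, 259, 2443, 1114, 1556 and 2177 of 12596 tested genes. DESeq2 called 1 between those day 7 effects and 6 among controls, against 2 among controls in limma. Of 12596 tested genes DESeq2 called 1118 and 2068 there, and limma 2449 among controls. The replicate block moved 1 call, Tap1 in DDC28 against DDC7 (-0.82, adjusted p = 0.015), and the numbers were not taken as pairing, since deviations of same-numbered libraries correlated at most at 0.15 and not above 0.1 in every pair. Leaving out 1 library at a time gave 2 to 4 calls in BDL7 and 5 to 8 in BDL28 against SHAM, 2 in DDC7 and 4 to 5 in DDC28 against CTLD, 0 to 1 in CsA7 and 0 in CsA28 against VEHICLE. It gave 8 to 10 in BDL28 against BDL7, 2 to 4 in DDC28 against DDC7 and 0 in CsA28 against CsA7. For the effect differences it gave 0 to 1 between ligation and DDC on both days, 0 to 1 between ligation and cyclosporin A at day 7, 4 to 7 at day 28, and 2 among controls. Pseudocounts of 0.5 and 5 and no filter on low values changed no member's call. Depth limits Ifng and most dendritic cell and B cell markers.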
